A study of Mus musculus with 24 samples.

Results

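The renin-angiotensin system genes of the mouse brain comprised 9 genes, chosen by name from the expression table: Agt, Ren1, Ace, Enpep, Atp6ap2, Agtr1a, Agtr1b, Agtr2 and Mas1. They were 9 of the 54532 genes listed, and all 9 passed the filter on low values (above 0 in at least 6 of 24 mice) that left 27286 genes for testing. RNA was sequenced from brain hemispheres of 24 male wild-type C57BL/6J mice, 8 to 12 weeks old, with 6 mice in each of 4 groups. All mice carried a minipump for 2 weeks, which released either saline (vehicle) or 0.7 mg/kg/day of angiotensin II, and all received a tail vein injection of saline or of 1000000 human amnion epithelial cells (AEC), cells of the placental amnion, after the pump was implanted. The groups were vehicle, angiotensin II, vehicle + AEC and angiotensin II + AEC, and the question put to each gene was whether the infused peptide or the cells went with another level of its mRNA.

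The renin-angiotensin system starts with angiotensinogen, the protein of Agt, which renin cuts to angiotensin I and angiotensin-converting enzyme trims to angiotensin II. Angiotensin II raises blood pressure, thirst and vasopressin release chiefly through the type 1 receptor, while the type 2 receptor and Mas are mostly described as opposing it. In the brain angiotensinogen is made mainly by astrocytes, converting enzyme is rich in the choroid plexus and in striatal neurons, and type 1 receptors are dense in a few small nuclei and organs at the edge of the ventricles, so that a whole hemisphere dilutes them. In such bulk tissue fewer cells of a type and less RNA per cell cannot be told apart.

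Expression was deposited as FPKM, a fragment count scaled to gene length and sequencing depth, so levels of different genes can be set side by side. The values came from 16536449 to 25308700 fragments per mouse, recovered as whole numbers from the FPKM steps. In 18 libraries the FPKM of all genes summed to 277115.9 to 298300.6 and in the other 6 to 338334.5 to 348596.7. The second set is called the high total set here and held vehicle replicates 5 and 6, angiotensin II replicate 5, vehicle + AEC replicate 6 and angiotensin II + AEC replicates 5 and 6. Marker genes of astrocytes, neurons, endothelium, striatum and cerebellum each had a mean of at least 1 FPKM. Pituitary markers summed to 1234.69 FPKM in angiotensin II replicate 4 and to 0.855 to 29.5 FPKM in the other 23 libraries, and hypothalamic markers to 422 FPKM in the same library and 45.3 to 106 FPKM elsewhere.

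The 9 genes lay in 3 tiers of level, and the mean of Atp6ap2 was 816 times that of Ren1. Atp6ap2 had a mean of 73.8 FPKM over the 24 mice and Agt of 54.9 FPKM, higher than 98.9% and 98.4% of all listed genes. Ace followed at 6.34 FPKM and Mas1 at 4.99 FPKM. The 5 others were scarce, with means of 0.580 FPKM for Enpep, 0.392 FPKM for Agtr2, 0.172 FPKM for Agtr1a, 0.0904 FPKM for Ren1 and 0.0591 FPKM for Agtr1b. Between the tiers the ranges of single mice did not overlap, that is between Agt and Ace and between Mas1 and Enpep. Within them they did: Atp6ap2 exceeded Agt in 21 of 24 mice, and Ren1 exceeded Agtr1b in only 14 of 24, so the order of the last pair was not set beyond its spread. Ace was above Mas1, and Agtr2 above Agtr1a, in each of the 24 mice although their ranges met.

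**Figure D1:**
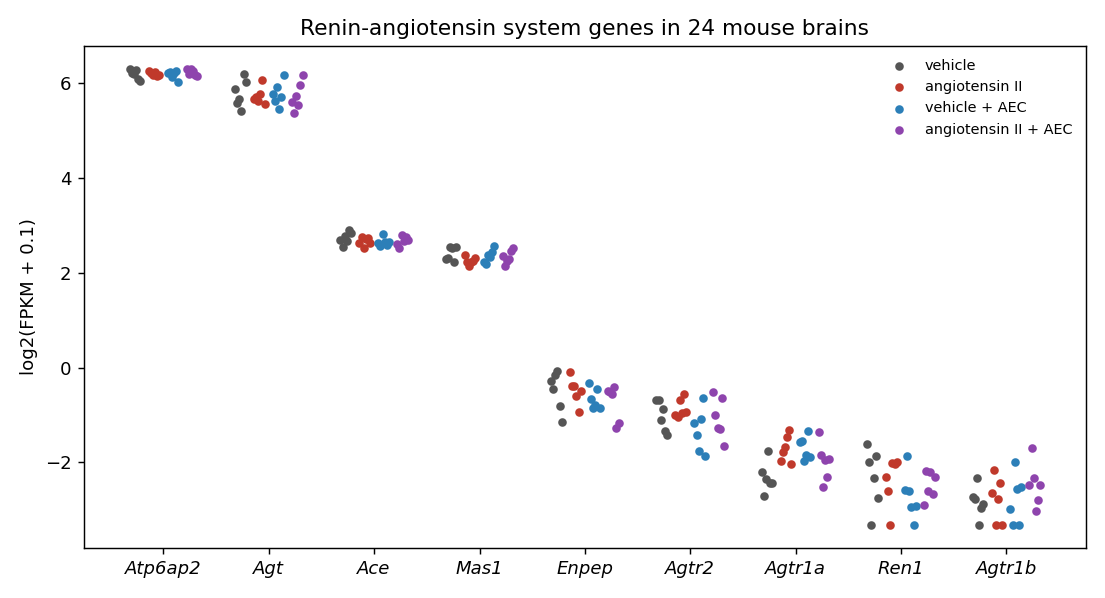
The 9 genes in order of mean level (horizontal axis) and their log2(FPKM + 0.1) in each mouse (vertical axis), with 1 point per mouse coloured by group. Atp6ap2 and Agt form the top tier, Ace and Mas1 the middle one, and the 5 scarce genes all lie below 1 FPKM.

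The fragments behind these levels set what could be seen. Atp6ap2 was counted on 3083 to 4685 fragments per mouse, Agt on 1489 to 3132, Ace on 533 to 949 and Mas1 on 205 to 382. Enpep had 29 to 92 fragments, Agtr2 11 to 38, Agtr1a 3 to 15, Agtr1b 0 to 9 and Ren1 0 to 7. For Agtr1a the mean coefficient of variation within a group was 36.8%, where counting alone gives 33.0%, so its scatter between mice was close to counting error. For Agt the same figures were 18.03% and 2.23%, so libraries differed far beyond counting error. Part of this scatter lay between the library sets. Agt was at 68.6 ± 4.48 FPKM (SD) in the 6 libraries of the high total set and at 50.3 ± 5.10 FPKM in the other 18. Counting error does not cover duplicates made by amplification.

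Agt, the only precursor of all angiotensins, lies on the minus strand of chromosome 8 (chr8:124556534-124569706 in GRCm38, 5 exons). Ren1, the gene of renin, the enzyme that releases angiotensin I, lies on the plus strand of chromosome 1 (chr1:133350510-133360325, 9 exons). Their promoters are shown because these genes sit near opposite ends of the level range, below Atp6ap2 and above Agtr1b, and each carries the same motif near its start. The 100 bases before each RefSeq start, from GRCm38.p6, are given 5′ to 3′ on the strand of the gene, with the letters TATAAA in capitals.
Agt, chr8:124569707-124569806, minus strand: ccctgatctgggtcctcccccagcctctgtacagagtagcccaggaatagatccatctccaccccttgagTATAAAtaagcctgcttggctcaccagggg
Ren1, chr1:133350574-133350673, plus strand: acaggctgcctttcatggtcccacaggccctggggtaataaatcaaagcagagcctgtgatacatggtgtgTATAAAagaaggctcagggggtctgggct
The motif began 30 bases before the RefSeq start of Agt and 29 bases before that of Ren1. The deposited span of Ren1 begins at 133350510, upstream of its RefSeq start, so the bases shown for Ren1 lie within that span. It was searched on the gene's strand only, in the 60 bases before the start, and was also found in the promoter of Agtr1b, while 944 of 32851 RefSeq promoters (2.87%) hold it there. None of the promoter entries of Ace, Agtr2, Mas1, Atp6ap2 and Enpep held these letters in that window.

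Agt ranged over 42.9, 54.5 and 72.8 FPKM (lowest, median and highest mouse) with vehicle and over 47.3, 51.8 and 67.3 FPKM with angiotensin II. With vehicle + AEC it ranged over 44.1, 53.5 and 72.0 FPKM, and with angiotensin II + AEC over 41.6, 50.7 and 72.4 FPKM. All 4 ranges overlapped almost completely. The log2 difference of angiotensin II from vehicle was -0.05 (95% interval -0.35 to 0.24), and that of angiotensin II + AEC from angiotensin II was -0.01 (-0.30 to 0.28). The second interval leaves room for a change of Agt between -19.0% and 21.7%.

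Ren1 was barely detected: 3 libraries had no fragment of it and the highest, vehicle replicate 1, had 0.227 FPKM. Summed over the 6 mice of a group, it had 22 fragments with vehicle, 20 with angiotensin II, 12 with vehicle + AEC and 16 with angiotensin II + AEC. The ratio of vehicle + AEC to vehicle, corrected for library size, was 0.570 with a counting interval of 0.257 to 1.20. Groups overlapped in every comparison, and a difference of Ren1 was not detectable at this depth.

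Ace, the converting enzyme and also a degrader of bradykinin, lies on the plus strand of chromosome 11 (chr11:105967945-105989964, 25 exons). It ranged over 5.70, 6.56 and 7.43 FPKM with vehicle and over 5.65, 6.29 and 6.64 FPKM with angiotensin II. With vehicle + AEC it ranged over 5.81, 6.16 and 6.97 FPKM, and with angiotensin II + AEC over 5.63, 6.32 and 6.86 FPKM. Vehicle replicates 5 and 6, both of the high total set, were above all other mice, and the groups overlapped. Angiotensin II differed from vehicle by -0.07 on the log2 scale (-0.21 to 0.06), vehicle + AEC from vehicle by -0.08 (-0.22 to 0.05) and angiotensin II + AEC from angiotensin II by 0.01 (-0.13 to 0.15).

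Enpep encodes aminopeptidase A, which turns angiotensin II into angiotensin III, and lies on the minus strand of chromosome 3 (chr3:129269175-129332720, 20 exons). It ranged over 0.350, 0.678 and 0.846 FPKM with vehicle and over 0.420, 0.637 and 0.832 FPKM with angiotensin II. With vehicle + AEC the values were 0.454, 0.503 and 0.700 FPKM, and with angiotensin II + AEC 0.311, 0.588 and 0.655 FPKM. Means were lower in both groups given cells, and ranges overlapped. Averaged over both pump treatments the difference with AEC was -0.21 on the log2 scale (-0.50 to 0.08; limma unadjusted p = 0.1498, adjusted p = 1). With the library set as a term in the fit the same difference had an unadjusted limma p of 0.0262, again with an adjusted p of 1.

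Atp6ap2 encodes the prorenin receptor, which is also a part of the proton pump of acidic vesicles, and lies on the plus strand of the X chromosome (chrX:12587801-12617049, 9 exons). It was the steadiest of the 9 genes, with a mean coefficient of variation of 4.82% within groups. It ranged over 66.6, 74.1 and 78.7 FPKM with vehicle and over 71.3, 73.5 and 76.2 FPKM with angiotensin II. With vehicle + AEC it ranged over 65.6, 74.3 and 76.9 FPKM and with angiotensin II + AEC over 71.7, 75.2 and 79.2 FPKM. The log2 difference of angiotensin II from vehicle was 0.01 (-0.10 to 0.12), which leaves room for a change between -6.40% and 8.40%.

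The mouse has 2 genes for the type 1 receptor, the one that carries most known actions of angiotensin II. Agtr1a lies on the plus strand of chromosome 13 (chr13:30336441-30382867, 3 exons with 1 coding exon) and Agtr1b on the minus strand of chromosome 3 (chr3:20314473-20367177, 2 exons with 1 coding exon). Their coding sequences, 1077 bases each, were identical at 978 bases (90.8%), with a longest shared run of 66 bases. The first 120 coding bases are shown, from the GENCODE M21 transcripts on GRCm38, since how well fragments of these genes could be told apart rests on such differences. Capitals mark the 8 bases that differ.
Agtr1a, chr13:30380954-30381073, plus strand: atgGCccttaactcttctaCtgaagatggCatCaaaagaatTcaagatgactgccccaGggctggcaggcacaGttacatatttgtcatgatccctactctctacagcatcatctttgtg
Agtr1b, chr3:20316321-20316440, minus strand: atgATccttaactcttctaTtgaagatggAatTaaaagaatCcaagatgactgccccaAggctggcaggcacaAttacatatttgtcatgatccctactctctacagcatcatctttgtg
How the authors' counting treated fragments that match both genes is not given in the sources used here, so the split between them is uncertain.

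Agtr1a had the lowest p of the 9 genes in each of the 4 comparisons between groups. In vehicle replicates 1 to 6 it had 0.116, 0.0536, 0.0948, 0.196, 0.0836 and 0.0845 FPKM, on 6, 3, 5, 10, 4 and 6 fragments. In the mice infused with angiotensin II it had 0.153, 0.191, 0.213, 0.264, 0.301 and 0.144 FPKM, on 10, 10, 11, 15, 14 and 8 fragments. With vehicle + AEC it had 0.237, 0.242, 0.154, 0.178, 0.294 and 0.168 FPKM, on 12, 14, 8, 10, 14 and 9 fragments. All 6 mice of either group lay above the vehicle mean, and 3 of 6 in each lay above every vehicle mouse, so the ranges overlapped through vehicle replicate 4. In angiotensin II + AEC the values spread from 0.0749 to 0.286 FPKM, on 4 to 14 fragments, across nearly the whole range of the other groups.

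The mean of Agtr1a was 0.105 ± 0.0489 FPKM (SD, n = 6) with vehicle, 0.211 ± 0.0618 FPKM with angiotensin II, 0.212 ± 0.0539 FPKM with vehicle + AEC and 0.160 ± 0.0734 FPKM with angiotensin II + AEC. Summed over 6 mice these were 34, 68, 67 and 51 fragments. The ratio of fragments to vehicle, corrected for library size, was 2.03 for angiotensin II (counting interval 1.32 to 3.16) and 2.06 for vehicle + AEC (1.34 to 3.21). Both comparisons share the same 6 vehicle mice, and the counting intervals leave out the spread between mice. As log2(FPKM + 0.1), a scale on which changes of so scarce a gene appear smaller, the difference was 0.61 (standard error 0.192) for angiotensin II and 0.62 (0.192) for vehicle + AEC.

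Neither difference of Agtr1a passed the adjusted threshold. For angiotensin II the limma p was 0.00419 unadjusted and 0.994 adjusted over the 27286 genes, and the exact permutation test of 6 against 6 mice gave a two-sided p = 0.0108. For vehicle + AEC the limma p was 0.00366 unadjusted and 0.995 adjusted, and the exact permutation test gave p = 0.00866. Of the 36 exact permutation tests (9 genes, 4 comparisons), these 2 had p under 0.05, and both used the same 6 vehicle mice. The test was run on the 9 genes only, so no share of all genes stands beside this count. The smallest p that 6 against 6 mice allow is 0.00217. Within the 18 libraries outside the high total set the log2 difference of angiotensin II from vehicle was 0.47, with an unadjusted limma p of 0.0609, so that the call was lost. That of vehicle + AEC was 0.60 there, with an unadjusted p of 0.0205. Within the high total set, vehicle replicates 5 and 6 were the lowest of the 6 libraries, angiotensin II replicate 5 was the highest, and the numbers are too few for a test. Without angiotensin II replicate 4, the library with the most pituitary and hypothalamic transcripts, the difference from vehicle was 0.56 and still passed the unadjusted threshold in limma.

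With both treatments the mean of Agtr1a lay between that of vehicle and those of either treatment alone. The interaction, that is the effect of angiotensin II with cells minus its effect without them, was -0.90 on the log2 scale (standard error 0.271; limma unadjusted p = 0.00296, adjusted p = 0.931). Angiotensin II + AEC differed from angiotensin II by -0.28 (-0.68 to 0.12) and from vehicle + AEC by -0.29 (-0.69 to 0.10). The exact permutation tests of these gave p = 0.191 and p = 0.165 for 6 against 6 mice. Averaged over the other treatment, the difference was 0.16 (-0.12 to 0.44) for angiotensin II and 0.17 (-0.11 to 0.45) for AEC.

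**Figure D2:**
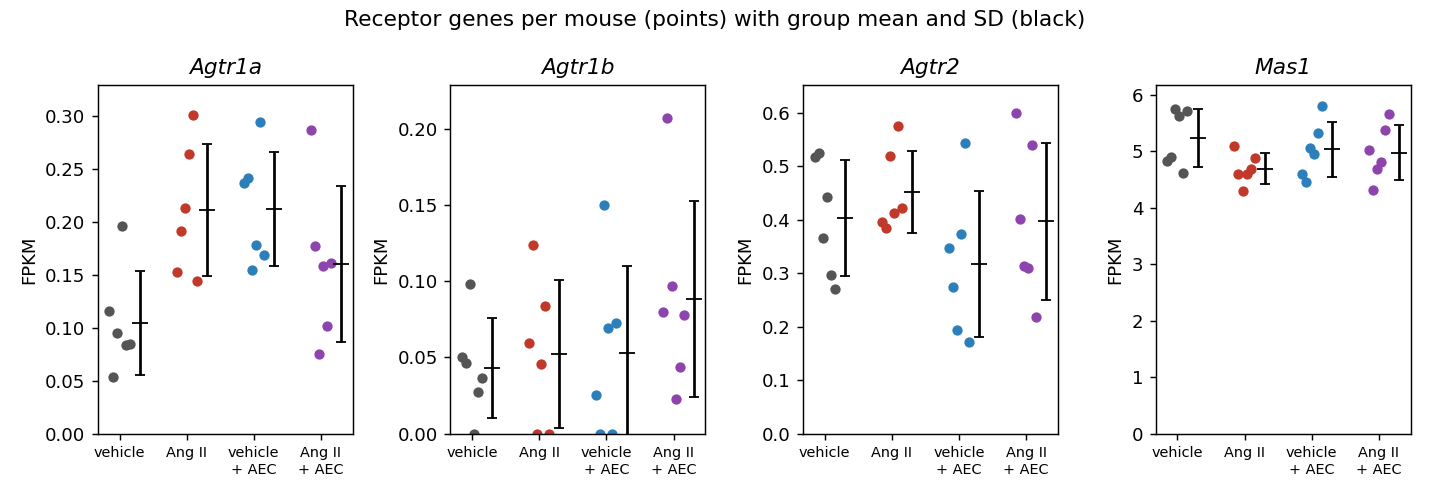
FPKM (vertical axis) of the receptor genes Agtr1a, Agtr1b, Agtr2 and Mas1 in each of 4 groups (horizontal axis), with 1 point per mouse and the group mean with SD in black (n = 6). For Agtr1a the vehicle group has the lowest mean, 0.105 FPKM, with 1 vehicle mouse (0.196 FPKM) inside the ranges of angiotensin II and vehicle + AEC, while the points of angiotensin II + AEC reach down to 0.0749 FPKM, among the vehicle mice.

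Agtr1b was at the edge of detection, with no fragment in 5 of 24 libraries. Summed over 6 mice it had 11 fragments with vehicle, 13 with angiotensin II, 13 with vehicle + AEC and 22 with angiotensin II + AEC. Of the last 22 fragments, 9 came from replicate 2, the highest library at 0.207 FPKM. The ratio of angiotensin II + AEC to angiotensin II was 1.70 with a counting interval of 0.820 to 3.68, so a difference was not detectable at this depth. In angiotensin II replicate 4, the library with the most pituitary and hypothalamic transcripts, Agtr1b was at 0.0457 FPKM, within the range of its group.

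Agtr2, the type 2 receptor, lies on the plus strand of the X chromosome (chrX:21484544-21489164, 3 exons with 1 coding exon). It ranged over 0.271, 0.404 and 0.524 FPKM with vehicle and over 0.384, 0.418 and 0.576 FPKM with angiotensin II. With vehicle + AEC it ranged over 0.172, 0.311 and 0.545 FPKM, and with angiotensin II + AEC over 0.219, 0.357 and 0.600 FPKM. The angiotensin II group was the tightest and the groups overlapped in each comparison. Angiotensin II differed from vehicle by 0.15 on the log2 scale (-0.30 to 0.61) and vehicle + AEC from vehicle by -0.30 (-0.76 to 0.15).

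Mas1, which encodes the receptor of a shorter angiotensin peptide, lies on the minus strand of chromosome 17 (chr17:12841079-12868143, 9 exons with 1 coding exon) and overlaps the antisense transcript Airn, which had a mean of 0.78 FPKM. Since the use of strand in the counting is not given in the sources used here, fragments of this pair cannot be told apart. Mas1 ranged over 4.62, 5.26 and 5.75 FPKM with vehicle and over 4.30, 4.64 and 5.09 FPKM with angiotensin II. With vehicle + AEC it ranged over 4.46, 5.004 and 5.81 FPKM and with angiotensin II + AEC over 4.32, 4.91 and 5.66 FPKM. All 6 mice with angiotensin II lay below the vehicle mean, and 3 lay below every vehicle mouse. The log2 difference was -0.15 (-0.31 to 0.01), which missed the threshold in limma (unadjusted p = 0.0622, adjusted p = 0.994) and in the exact permutation test (p = 0.0563). The limma call changed with the setting. In the 18 libraries outside the high total set the difference was -0.16 (limma unadjusted p = 0.0312, adjusted p = 1), and with array weights it was also -0.16 (limma unadjusted p = 0.0169, adjusted p = 0.985). Angiotensin II + AEC differed from angiotensin II by 0.08 (-0.08 to 0.24).

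Counted together, 1 of the 9 genes (Agtr1a, higher) had an unadjusted limma p under 0.05 with angiotensin II against vehicle, where 2.21% of all genes tested did and 1.21% were higher. With vehicle + AEC against vehicle it was again 1 of 9 (Agtr1a, higher) beside 2.41% of all genes (1.12% higher), and for the interaction 1 of 9 (Agtr1a, lower) beside 2.54% (1.36% lower). In angiotensin II + AEC against angiotensin II it was 0 of 9 beside 2.54%, and against vehicle + AEC 0 of 9 beside 2.66%. Averaged over the other treatment it was 0 of 9 for angiotensin II beside 2.39% and 0 of 9 for AEC beside 2.44%. With the adjusted limma p under 0.05, 0 of the 9 genes and 0 of all 27286 were called in each of these 7 comparisons. The median log2 difference of the 9 genes was 0.00 for angiotensin II against vehicle and -0.06 for vehicle + AEC against vehicle, beside 0.02 and 0.01 over all genes tested. The limma p-values set each difference against the spread between these mice, which the fit draws toward that of genes of like level.

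**Figure D3:**
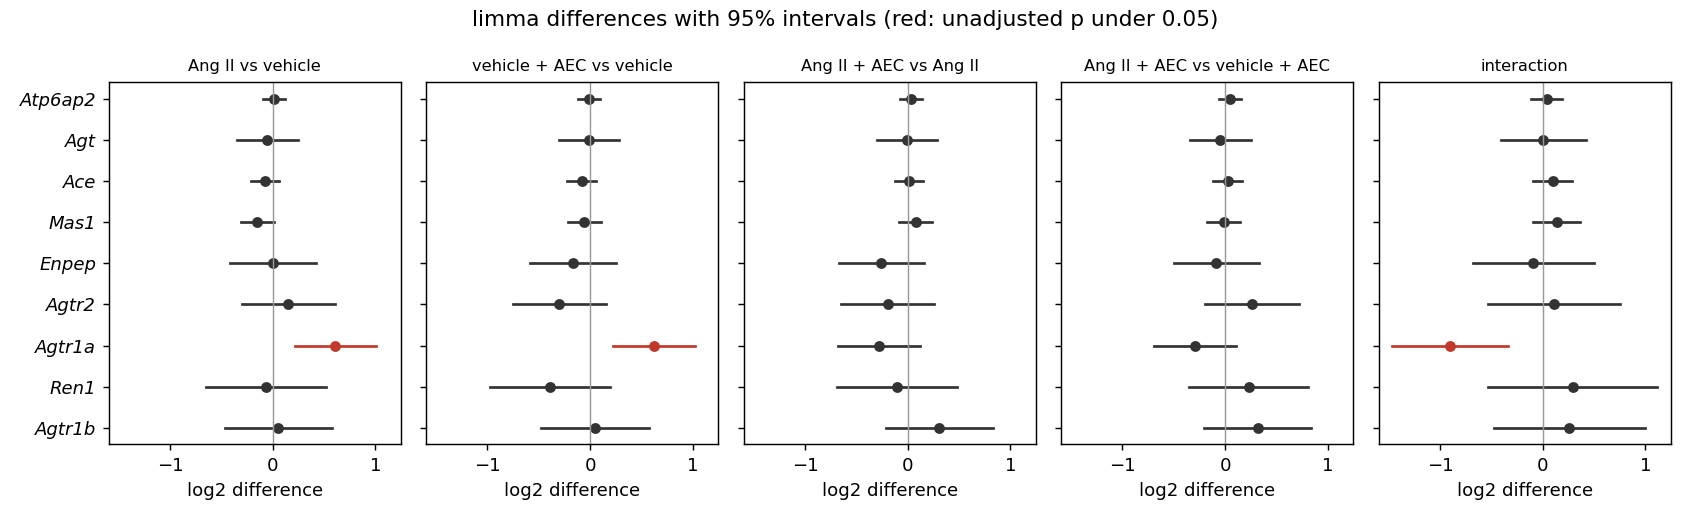
Log2 differences from limma (points, horizontal axis) with 95% intervals (bars) for the 9 genes (vertical axis, by mean level) in 4 comparisons and the interaction, with an unadjusted p under 0.05 in red. The intervals of Agtr1a exclude 0 for angiotensin II (0.61) and vehicle + AEC (0.62) against vehicle and for the interaction (-0.90), while those of the other 8 genes include 0.

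For Agt, Enpep and Atp6ap2 the high total set of 6 libraries differed from the other 18 by more than any treatment group differed from another. Agt had 62.1 to 72.8 FPKM in the 6 and 41.6 to 60.8 FPKM in the 18, without overlap, a log2 difference of 0.47 with the treatment group in the fit (limma adjusted p = 6.98e-07). Enpep had 0.311 to 0.470 FPKM in the 6 and 0.456 to 0.846 FPKM in the 18 (log2 difference -0.60, limma adjusted p = 2.66e-05). Atp6ap2 had 65.6 to 71.8 FPKM in the 6 and 70.3 to 79.2 FPKM in the 18 (-0.13, limma adjusted p = 3.68e-05). These 3 of 9 genes passed the adjusted threshold, beside 53.3% of all genes tested, so such a difference was common among all genes. Ace (0.10, limma adjusted p = 0.0659) and Mas1 (0.11, limma adjusted p = 0.115) did not pass it, nor did Agtr1a (-0.08, limma adjusted p = 0.730), Agtr2, Agtr1b and Ren1. Each treatment group held 1 or 2 of the 6 libraries. Marker lists gave no single direction between the sets. The sum of the 8 astrocyte markers, led by Aldoc (419 FPKM), was 750 to 802 FPKM in the 6 libraries and 658 to 732 FPKM in the 18, while their mean log2 level was lower in the 6 (5.18 to 5.29) than in the 18 (5.34 to 5.47). Endothelial markers summed to 117 to 139 FPKM and to 77.9 to 102 FPKM, and their mean log2 levels overlapped (2.93 to 3.14 and 2.90 to 3.05). Choroid plexus and striatal sums were also higher in the 6, with mean log2 levels that overlapped. Markers of mural cells (of the vessel wall) were higher in the 6 without overlap. They summed to 118 to 135 FPKM against 70.7 to 86.8 FPKM, with mean log2 levels of 2.08 to 2.47 against 1.70 to 1.94. Thalamic markers were lower in the 6 without overlap. They summed to 25.1 to 29.4 FPKM against 31.3 to 36.9 FPKM, with mean log2 levels of 1.85 to 2.01 against 2.04 to 2.23. The part of these markers in the levels of Agt and Enpep was not tested.

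**Figure D4:**
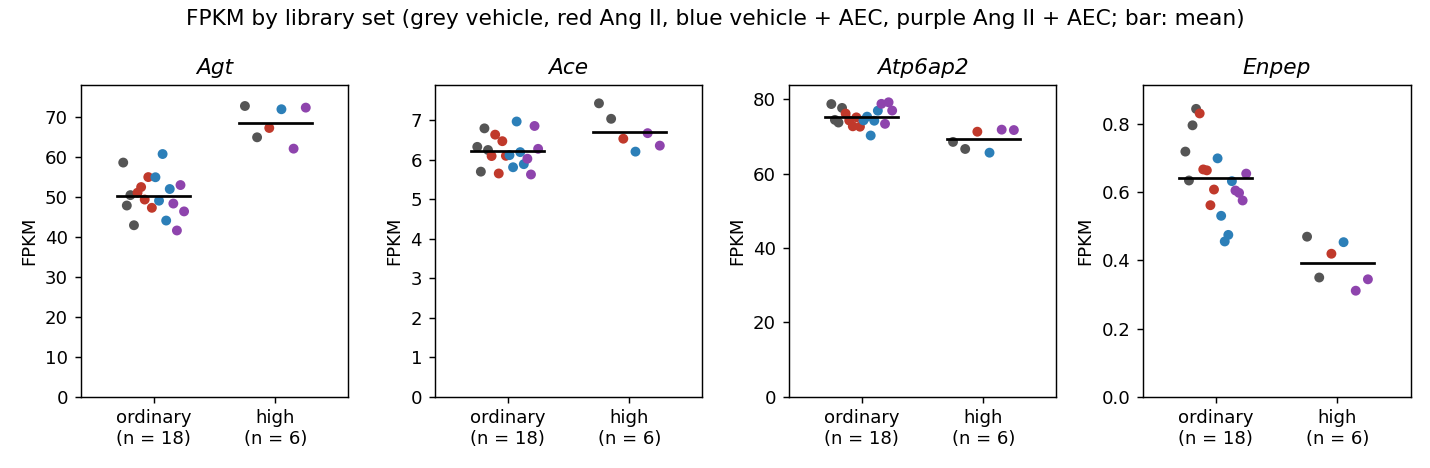
FPKM (vertical axis) of Agt, Ace, Atp6ap2 and Enpep in the 18 libraries of ordinary and the 6 of high total FPKM (horizontal axis), with 1 point per mouse coloured by group and the mean as a bar. Agt lies at 62.1 FPKM or above in the high total set and at 60.8 FPKM or below in the others, and colours are mixed within each set.

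Within the 18 libraries the members were compared with markers of cell types and brain regions, and no relation passed the correction. The deviation of Ace from its group mean was compared with that of the choroid plexus markers, a list led by Ttr (664 FPKM), and gave Pearson's r = 0.747 and Spearman's rho = 0.686 over 18 mice (permutation p = 0.00246 and 0.00736). Adjusted over the 99 relations computed (9 genes, 11 marker lists) these were 0.181 and 0.233, so the relation failed it. Without the 2 mice farthest from the median of the markers, r was 0.638. For the 6 libraries of the high total set, r was taken from log2 levels without removing group means, so it is another measure. There r was 0.417 (exact permutation p = 0.406). Agt gave r = 0.669 and rho = 0.645 with the same markers (permutation p = 0.00548 and 0.00995, adjusted 0.181 and 0.233), and r = 0.568 without the 2 farthest mice. Within the high total set the r of its levels was 0.282 (exact permutation p = 0.583). With astrocyte markers Agt gave r = 0.040 and rho = 0.092 over the 18 mice (permutation p = 0.886 and 0.745). With striatal markers Ace gave r = -0.653 and rho = -0.647 (permutation p = 0.00506 and 0.00773, adjusted 0.181 and 0.233; r = -0.554 without the 2 farthest mice). In the high total set the r of levels was -0.045 (exact permutation p = 0.9375). Of the 99 relations, 8 had an unadjusted Pearson p under 0.05 and 0 an adjusted one. Besides those above, the 8 held Agt with striatal (r = -0.498) and cerebellar markers (0.512) and Agtr2 with hindbrain markers (-0.481). They also held Ren1 with astrocyte markers (0.695, on at most 7 fragments per mouse) and Atp6ap2 with thalamic markers (-0.565).

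**Figure D5:**
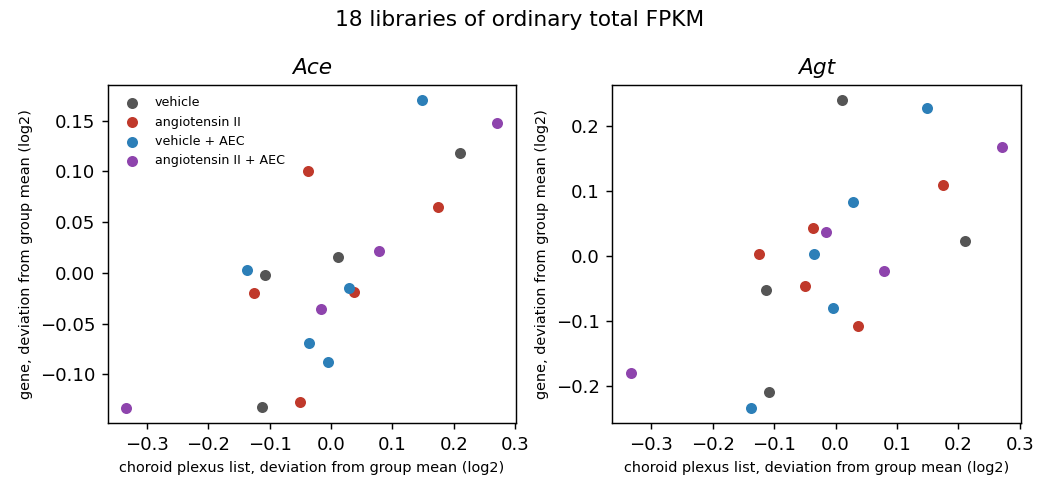
Deviation of the choroid plexus marker list from its group mean (horizontal axis, log2) against the deviation of Ace and of Agt (vertical axes, log2) in the 18 libraries of ordinary total FPKM, coloured by group. The mice with the lowest and the highest marker level, both of angiotensin II + AEC, lie at -0.33 and 0.27 on the horizontal axis, and without them r was 0.638 for Ace and 0.568 for Agt.

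The genes whose levels went most closely with those of the better expressed members were named by Pearson's r of residuals from group and library set over 24 mice, among 13648 genes. For Agt these were Arhgef40 (0.74), Itih3 (0.73) and Cbx7 (0.73), and for Ace they were Igsf1 (0.74), C130021I20Rik (0.71) and Atp13a4 (0.69). Mas1 went with Evl (0.81), Doc2b (0.76) and Pknox2 (0.76), and Atp6ap2 with Zfp354a (0.84), Tia1 (0.78) and Hnrnph2 (0.77). These are the highest of many correlations and carry no test.

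Of 16 peptidases that make or degrade angiotensin peptides, Ctsd (cathepsin D) was the most abundant at 104 FPKM over the 24 mice, followed by Ctsa at 23.9 FPKM and Dpp3, which degrades angiotensin peptides, at 16.5 FPKM. None of the 16 had an unadjusted limma p under 0.05 with angiotensin II against vehicle, in angiotensin II + AEC against vehicle + AEC, or for the interaction. In vehicle + AEC against vehicle 1 of 16 did, Prep (prolyl endopeptidase), at 3.23 ± 0.214 against 2.95 ± 0.170 FPKM (SD, n = 6 each; log2 difference 0.13, limma unadjusted p = 0.0392, adjusted p = 0.995). In angiotensin II + AEC against angiotensin II 1 of 16 did, Ctsg (cathepsin G of neutrophils and mast cells), with 1 to 6 fragments per mouse against 0 to 12 (log2 difference 0.92, limma unadjusted p = 0.0383, adjusted p = 1). Ctsg had 0 fragments in each of the 6 vehicle mice and 0 to 5 with vehicle + AEC, and it was the gene called in both averaged comparisons too (0.63 for angiotensin II and 0.85 for AEC; limma unadjusted p = 0.0454 and 0.00857, adjusted p = 1 for both). These shares stand beside 2.21% to 2.66% of all genes.

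Of 14 partners and signal carriers of the receptors, 13 were tested, and Mrgprd, a receptor of the Mas family, had at most 1 fragment per mouse and was left out. The most abundant were Atp6ap1, a proton pump subunit, at 128 FPKM, Arrb1 (an arrestin) at 34.2 FPKM and Gna11, a G protein that couples to the type 1 receptor, at 34.0 FPKM. Their groups lay close together, with Gna11 at 34.2 ± 2.89 FPKM in vehicle mice and at 33.8 ± 1.90 FPKM after angiotensin II (SD, n = 6 each). None of the 13 had an unadjusted limma p under 0.05 in any of the 7 comparisons.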

How the data were processed

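Brain RNA of 24 mice, 6 in each of 4 groups given by the sample labels, was sequenced by the authors after poly-T purification. They deposited 1 table of FPKM values with gene lengths and coordinates of GRCm38. Per the labels and the paper's methods, reads were mapped to the Ensembl mouse genome and tested with DESeq 1.10.1. Aligner, counting tool and strand setting are not given in the sources used here. All 24 columns were used, and 0 columns were left out. FPKM times gene length gave whole numbers of fragments for 100% of values (tolerance 0.1 fragment). Depth was 16536449 to 25308700 fragments per mouse.

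Genes above 0 in at least 6 of 24 mice were tested with limma 3.58.1 (R 4.3.3), fitting the 4 groups together to log2(FPKM + 0.1), with a trended eBayes step and Benjamini-Hochberg adjustment over 27286 genes. Fold changes on this scale understate the change of low genes. Single genes were also tested with two-sided exact permutation tests (Python 3.11.15, scipy 1.17.1), and correlations with 100000 permutations. Ratios of summed fragments carry 95% counting intervals, which treat the pooled fragments as the units and leave out the spread between mice. The fit was tested on simulated data with known changes. These were not placed in genes as scarce as Agtr1a, Agtr1b and Ren1, and no library sets were simulated, so that test does not cover them. Library sets were defined by total FPKM.

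The 9 genes were named; from each pathway list, the 3 genes of highest mean and up to 4 per comparison with an unadjusted p under 0.05; and for members with a mean of at least 1 FPKM, the 3 genes of highest r. Members, lists and tests were chosen with earlier results of these data known. Alternatives were a pseudocount of 1 or 0.01, no filter, a minimum mean of 1 FPKM, only the compared groups, median-ratio rescaling, limma voom on recovered reads, array weights, the replicate number as a block, the library set as a term, the 18 libraries alone, and each mouse left out. Promoters are from RefSeq (GRCm38.p6); 8 of the 9 genes matched, Agtr1a not. Gene models are from GENCODE M21, where all 9 had the deposited coordinates. Results of some other genes are not reported here.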

Additional observations from a re-analysis of the deposited data

Results flagged for a closer look

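In 36 groups of 6 mice (9 genes, 4 groups), 1 value stood apart from its group by Dixon's criterion, which chance exceeds in about 1 of 20 groups. Ace in vehicle + AEC replicate 3 was at 6.97 FPKM, and the next mouse of the group at 6.21 FPKM, a gap of 0.658 of the group's range. The summed choroid plexus markers of this library were 743 FPKM, the highest among the 5 vehicle + AEC libraries outside the high total set, where the others had 517 to 666 FPKM. Its part in the level of Ace was not tested.

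The effect of angiotensin II on Agtr1a differed between mice without and with AEC, by an interaction of -0.903 on the log2 scale (limma unadjusted p = 0.00296, adjusted p = 0.931), a difference that failed the correction over all genes. Without cells all 6 mice of the angiotensin II group were higher than the vehicle mean, and with cells 5 of 6 lay below the mean of vehicle + AEC. The means behind it rest on 34 to 68 fragments per group of 6 mice. The vehicle mice, with 34 fragments, enter each comparison that called Agtr1a, so these calls are not independent.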

How the results depend on the processing

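The differences of Agtr1a kept their direction in all alternatives and with any mouse left out. In the 3 comparisons that called it, the unadjusted p stayed under 0.05 except for angiotensin II against vehicle in the 18 libraries outside the high total set (0.47; limma unadjusted p = 0.0609, adjusted p = 1). Its log2 difference of angiotensin II from vehicle ran from 0.13 (pseudocount 1) to 1.01 (limma voom on recovered reads). The share of all genes with an unadjusted limma p under 0.05 was computed only for the reported fit (2.21% to 2.66%). The counts of members in other settings below therefore have no share beside them, and whether they exceed it was not tested. Members with an unadjusted limma p under 0.05 were 1 for angiotensin II against vehicle, and 2 without a filter, with array weights or with the replicate number as a block, each time by adding Mas1. In the 18 libraries it was again 1, but Mas1 in place of Agtr1a. When genes needed a mean of 1 FPKM, only 4 members, without Agtr1a, were tested, and the count was 0 for angiotensin II against vehicle, vehicle + AEC against vehicle and the interaction. For vehicle + AEC against vehicle it was 2, by adding Enpep, with array weights, with the library set as a term and in the 18 libraries. With the library set as a term it was 2 for the interaction and 1 for angiotensin II + AEC against vehicle + AEC (Atp6ap2 in both). Averaged over the other treatment, it was 1 (Mas1) for angiotensin II with array weights and in the 18 libraries, and 1 (Enpep) for AEC with array weights, with the library set as a term and in the 18 libraries. Leaving out 1 mouse gave 1 to 2 members for angiotensin II against vehicle (2, adding Mas1, without vehicle replicate 1 or 5 or without angiotensin II replicate 1) and 1 to 2 for vehicle + AEC against vehicle (2, adding Ren1, without vehicle replicate 3). It gave 0 to 1 for angiotensin II + AEC against angiotensin II and against vehicle + AEC (Agtr1a, without angiotensin II + AEC replicate 1). It gave 0 to 1 for AEC averaged (Enpep without vehicle replicate 6, Agtr2 without vehicle + AEC replicate 5). The adjusted count was 0 in every alternative. Among alternative values of single genes, 22 passed an unadjusted threshold that the reported value missed, 8 (of Agtr1b and Ren1) moved by more than the spread between mice, and 0 reversed a call. Rescaling by median ratios moved the median of all genes by at most 0.02 (log2). Deviations of same-numbered mice had a correlation over 0.1 in 28 of 36 pairs (-0.22 to 0.80, median 0.35), and 7 of 24 mice correlated best with their own number. In none of the 4 comparisons did every pair exceed 0.1, and the labels give the numbers no meaning, so they were not taken as a pairing. Every pair of vehicle with angiotensin II + AEC, which was not among those comparisons, did exceed it (0.44 to 0.79). Each negative correlation joined a library of the high total set with one outside it, so the library sets enter these values. With the replicate block, 2 members were called for angiotensin II against vehicle (Mas1 at limma unadjusted p = 0.0319, adjusted p = 0.896). For Agtr1b, Ren1 and Agtr1a the 0 to 15 fragments per mouse limit what could be detected.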

Other observations

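Among the peptidases that act on angiotensin peptides, many differed between the library sets. The libraries of the high total set held more mRNA of 3 mast cell proteases, among them chymases, some of which can form angiotensin II without converting enzyme. Mcpt4 was higher by 1.36 on the log2 scale (limma adjusted p = 2.50e-04), Cma1 by 1.22 (limma adjusted p = 6.99e-05) and Cpa3, the mast cell carboxypeptidase, by 0.72 (limma adjusted p = 0.00945). Ctsg, expressed by neutrophils and mast cells, gave -0.32 (limma adjusted p = 0.466) and did not pass. The 3 that passed were scarce, with means of 0.111, 0.0998 and 0.0647 FPKM and at most 12, 11 and 8 fragments in a mouse. Cathepsin D (Ctsd, 0.57) and Ctsa (0.47) were higher too and passed, as did the peptidases Thop1 (0.44), Rnpep (0.37), Anpep (0.29) and Dpp3 (0.27). Lower and past the threshold were Lnpep, the aminopeptidase that binds angiotensin IV (-0.59), Nln (-0.58) and Mme (-0.45). Gnaq, a G protein of the type 1 receptor, was also lower (-0.80). The peptidases Prep, Prcp and Klk1 did not pass. As above, 53.3% of all genes tested passed the adjusted threshold in this contrast of libraries.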
